A study of Caenorhabditis elegans with 6 samples.

Results

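The cyp-35A subfamily of Caenorhabditis elegans comprises the cytochrome P450 genes cyp-35A1 to cyp-35A5, and their transcripts were compared between worms exposed to albendazole and worms exposed to the solvent. The members were taken by gene symbol as the probe sets that the platform annotation assigns to 1 of these genes alone, which gave 5 genes of 17118 measured, each with 1 of the 22548 probe sets tested, and 0 further probe sets list a cyp-35A gene together with others. Whole young adult worms of strain CB3474, with the genotype ben-1(e1880)III, were used in both groups, so worms with an intact ben-1 gene were not part of the comparison. After 70 h of liquid culture from the first larval stage at 20 °C, the albendazole (ABZ) group received 300 µg/ml of the drug in 1.5% dimethyl sulfoxide (DMSO) for 4 h, and the DMSO group received 1.5% DMSO for 4 h. Each group has 3 biological replicates, with 1 Affymetrix array per replicate and about 10000 worms per condition.

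Cytochrome P450 enzymes are haem proteins of the endoplasmic reticulum that insert oxygen into foreign compounds and lipids, using electrons from P450 reductase. In C. elegans the cyp-35A genes are known as intestinal genes that many foreign compounds induce, and knockdown of members of the subfamily lowers fat stores. Albendazole is a benzimidazole anthelmintic that binds β-tubulin, and ben-1 encodes a β-tubulin without which worms resist such drugs.

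The genes lie in 3 places of the WBcel235 assembly. In its order of protein-coding genes cyp-35A1 and cyp-35A2 are direct neighbours, cyp-35A3 and cyp-35A4 are separated by K09D9.1, and cyp-35A5 is followed by cyp-35B1 and cyp-35B2. The subfamily's members have similar sequences, and probe sequences were not used here, so whether a probe set also bound transcripts of a relative was not tested. Values below are log2 signals as deposited, and signals of different probe sets are not compared as levels. A log2 fold change is the ABZ mean minus the DMSO mean. A gene was called when limma gave it a p under 0.05 after Benjamini-Hochberg adjustment, made over every probe set tested.

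The arrays themselves differed in 1 respect that touches every result. DMSO replicate 1 had an SD of 1.73 over its log2 values, against 1.98 to 2.02 on the other 5 arrays, and it correlated with them at 0.934 to 0.943. Dim probe sets read high on that array and bright ones low, so fold changes of the cyp-35A genes are also given without it. Fold changes of all other genes and lists include that array. With probe sets in 5 bins by brightness, the median log2 fold change was -0.119 and -0.127 in the dimmest bins 1 and 2. It was 0.225 and 0.208 in the brightest bins 4 and 5. The mutated gene ben-1 had log2 signals of 8.99, 8.67 and 8.74 with ABZ and 7.95, 8.65 and 8.63 with DMSO, and was not called. All 10 intestine markers searched for were measured, and their mean log2 signal was 10.9 to 11.2 with ABZ and 10.7 to 11.1 with DMSO. In RNA from whole worms, fewer cells of a type and less RNA per cell cannot be told apart.

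cyp-35A5 and cyp-35A2 had the higher signals with ABZ, at 9.81-fold and 4.88-fold over DMSO, while cyp-35A1, cyp-35A3 and cyp-35A4 had overlapping groups. None of the 5 genes was called, and limma called 0 of the 22548 probe sets (0%). By limma's unadjusted p, 420 probe sets, or 1.86%, lay under 0.05, with 1.52% higher and 0.341% lower with ABZ. Of the cyp-35A genes, 2 of 5 were higher at that unadjusted threshold and 0 lower. In the same 2 genes every ABZ value lay above every DMSO value, a pattern shown by 7.81% of all probe sets. A positive log2 fold change was found in 4 of 5 genes and in 53.3% of all probe sets. The median log2 fold change was 0.82 over the 5 genes and 0.02 over all probe sets.

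The largest difference was that of cyp-35A5 (NCBI gene 178802). Its log2 signal was 10.05, 12.05 and 10.14 in ABZ replicates 1, 2 and 3, against 7.39, 7.23 and 7.75 in DMSO replicates 1, 2 and 3. The groups did not overlap, and the lowest ABZ value exceeded the highest DMSO value by 2.30 on the log2 scale, a 4.94-fold gap in signal. The ABZ mean was 10.75 ± 1.13 and the DMSO mean 7.45 ± 0.27 (SD, n = 3 each). The log2 fold change was thus 3.29, with a standard error (SE) of 0.55. Its unadjusted limma p of 0.000868 ranked 7 among all probe sets, and its adjusted p was 0.651. The size of the difference rested in part on ABZ replicate 2, without which the log2 fold change was 2.64, or 6.25-fold. The SE without that array was 0.20. DMSO replicate 1 lay between the other DMSO values, and without it the log2 fold change was 3.26.

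cyp-35A2 (gene 182177), a member whose knockdown is known to lower fat stores, had log2 signals of 10.89, 12.01 and 11.07 in ABZ replicates 1, 2 and 3. In DMSO replicates 1, 2 and 3 it had 8.01, 9.34 and 9.76. The groups again did not overlap, with a gap of 1.14, or 2.20-fold, between the lowest ABZ and the highest DMSO value. On the DMSO side replicate 1 was lowest and differed from the mean of the other DMSO arrays by -1.54. When the probe sets were put into 5 bins of equal size by brightness, those of the gene's bin, the brightest, had a median difference of -0.60 on that array. The gene's ABZ values count towards its bin. The part of brightness in the value of -1.54 was not tested. The ABZ mean was 11.32 ± 0.60 and the DMSO mean 9.03 ± 0.91 (SD, n = 3 each). This is a log2 fold change of 2.29 (SE 0.52, unadjusted limma p 0.00422, adjusted p 0.651). Without DMSO replicate 1 it was 1.77, or 3.42-fold, and without ABZ replicate 2 it was 1.95.

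cyp-35A1 (gene 182176), the direct neighbour of cyp-35A2, had log2 signals of 6.45, 7.63 and 6.74 in ABZ replicates 1, 2 and 3 and 6.52, 5.69 and 6.15 in DMSO replicates 1, 2 and 3. The groups overlapped by 1 pair of values, since ABZ replicate 1 lay below DMSO replicate 1 (ABZ minus DMSO -0.07). The log2 fold change was 0.82 (SE 0.36, unadjusted limma p 0.0597, adjusted p 0.651). It was 1.02 without DMSO replicate 1, where the remaining groups did not overlap, and 0.48 without ABZ replicate 2. DMSO replicate 1 lay 0.60 above the mean of the other DMSO arrays, while the median of probe sets of like brightness there was 0.26.

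cyp-35A3 (gene 187209), whose promoter has been used as an intestinal reporter of xenobiotic exposure, stood at 7.21, 8.90 and 7.72 in ABZ replicates 1, 2 and 3, against 8.24, 6.86 and 7.42 in DMSO replicates 1, 2 and 3. High values were found in ABZ replicate 2 and DMSO replicate 1, and the groups overlapped. The log2 fold change of 0.44 (SE 0.52, unadjusted limma p 0.431, adjusted p 0.677) was -0.035 without ABZ replicate 2 and 0.81 without DMSO replicate 1. On DMSO replicate 1 the gene lay 1.10 above the other DMSO arrays, against a median of 0.03 for probe sets of like brightness.

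cyp-35A4 (gene 183622) showed the smallest difference. It had 6.78, 7.21 and 6.98 in ABZ replicates 1, 2 and 3 and 7.38, 6.92 and 7.07 in DMSO replicates 1, 2 and 3, with overlapping groups. The log2 fold change was -0.13 (SE 0.17, unadjusted limma p 0.477, adjusted p 0.696), and without DMSO replicate 1 it was -0.0017. The sign turned with array weights (0.12), with gene-by-gene weights (0.10) and when both arrays numbered 1 were omitted (0.10).

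**Figure D1:**
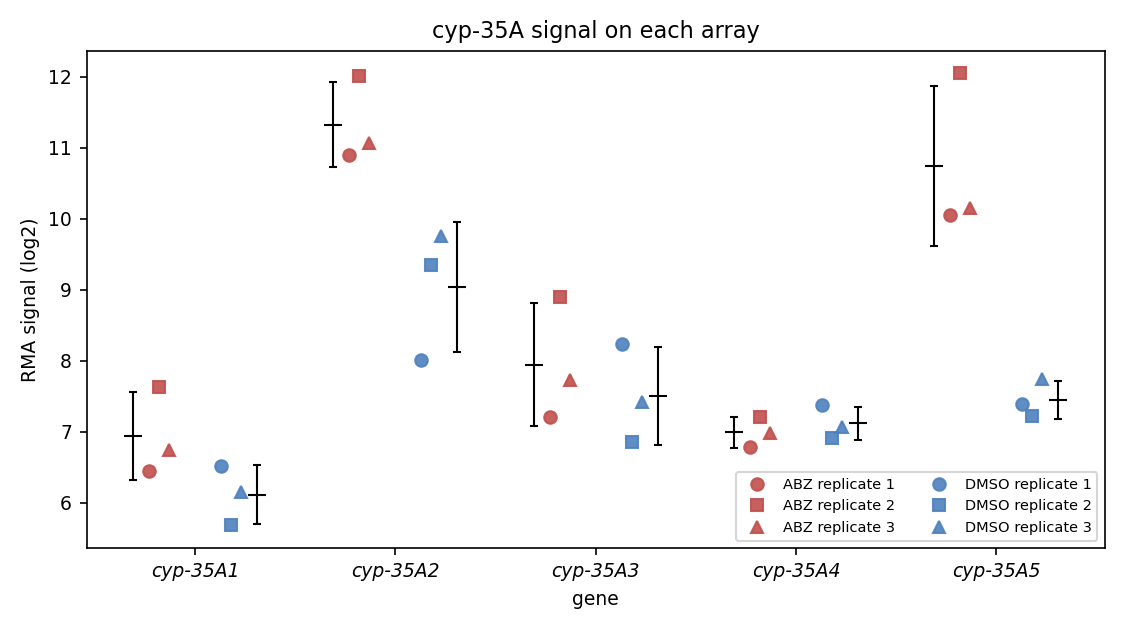
Log2 signal of the 5 cyp-35A genes on each array (vertical axis), with ABZ left of DMSO for each gene and marker shape giving the replicate; horizontal ticks with bars are means ± SD (n = 3 each). ABZ values lie above DMSO values for cyp-35A2 and cyp-35A5, and ABZ replicate 2 (square) is the highest ABZ value of every gene.

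The count of members at an unadjusted p under 0.05, 2 of 5 with all arrays, lay between 2 and 4 in the other settings. Without DMSO replicate 1, 3 of 5 genes were higher at that threshold, cyp-35A1, cyp-35A2 and cyp-35A5, where 2.97% of all probe sets were. Every ABZ value lay above every DMSO value in 3 of 5 genes without that array, against 10.2% of all probe sets. Without ABZ replicate 2 the counts were 2 of 5 by the unadjusted p and 2 of 5 by non-overlap, against 0.887% and 11.5% of all probe sets. With replicate 1 of both groups left out, 4 of 5 were higher at the unadjusted threshold, with log2 fold changes of 1.27 for cyp-35A1 and 1.18 for cyp-35A3, beside 2.47% of all probe sets. Quantile and cyclic loess normalization each gave 3 of 5, beside 1.29% and 1.78% of all probe sets.

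Calls were made when arrays were weighted by their agreement with their group. With limma's default array weights, cyp-35A5 (log2 fold change 3.74) and cyp-35A2 (2.10) passed, each at an adjusted limma p of 0.0433, among 25 probe sets (0.111%) called as higher. The same weights gave log2 fold changes of 1.38 for cyp-35A1 (unadjusted limma p 0.00066, adjusted p 0.106) and 1.27 for cyp-35A3 (unadjusted limma p 0.00611, adjusted p 0.124). By the unadjusted p, 4 of 5 members were then higher, as were 9.29% of all probe sets. DMSO replicates 1, 2 and 3 then had weights of 0.0428, 10.4 and 0.61, so the DMSO side came mostly from replicate 2. These default weights also stopped before they converged. With gene-by-gene weights cyp-35A5 and cyp-35A2 missed the threshold, each at an adjusted limma p of 0.156. That setting called 5 probe sets (0.0222%) as higher. The adjusted p of cyp-35A5 and of cyp-35A2 ranged from 0.0433 to 0.961 over the 15 other settings.

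**Figure D2:**
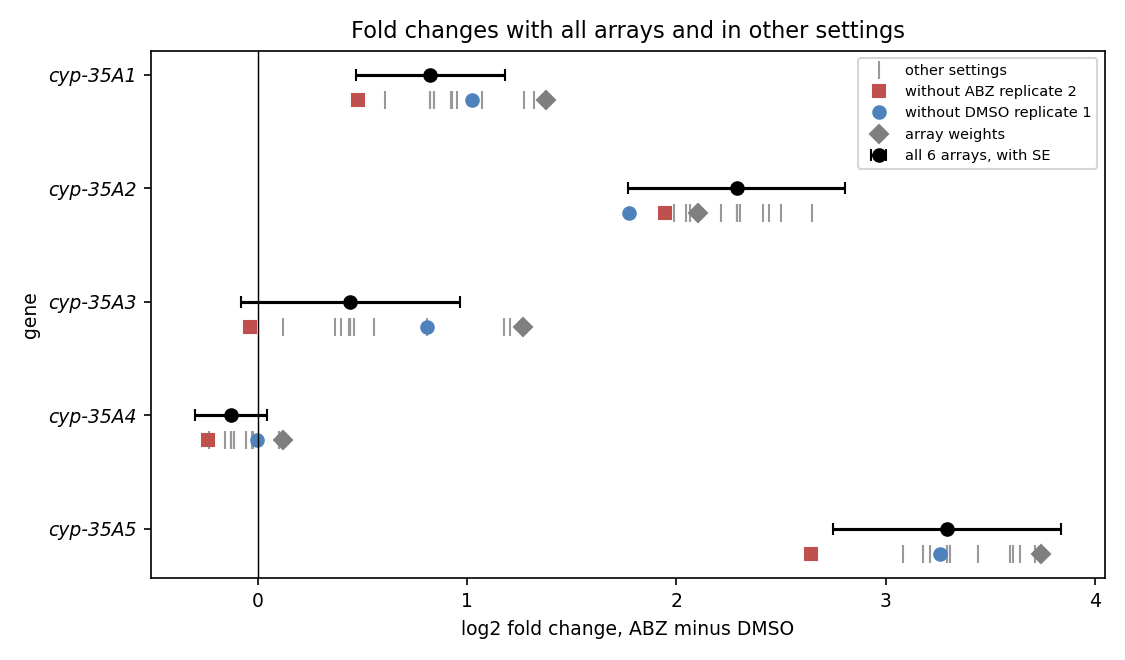
Log2 fold change, ABZ minus DMSO (horizontal axis), of each cyp-35A gene with all 6 arrays (black point, bar ± SE) and, on the line under it, in the other settings. Values of cyp-35A5 run from 2.64 to 3.74 and those of cyp-35A2 from 1.77 to 2.65, while cyp-35A3 and cyp-35A4 have values on both sides of 0.

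Both genes with separated groups also stood at the edge of the whole table. A difference of at least 2-fold higher with ABZ was found for 36 probe sets, or 0.16%, and cyp-35A2 and cyp-35A5 were 2 of them. The share of probe sets with a log2 fold change at least as large was 0.00887% for cyp-35A5, 0.0177% for cyp-35A2 and 0.448% for cyp-35A1. It was 6.18% for cyp-35A3 and 72.2% for cyp-35A4. The edge was not particular to cyp-35A, since the probe sets of its relative cyp-35C1 had log2 fold changes of 3.27 and 3.55.

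**Figure D3:**
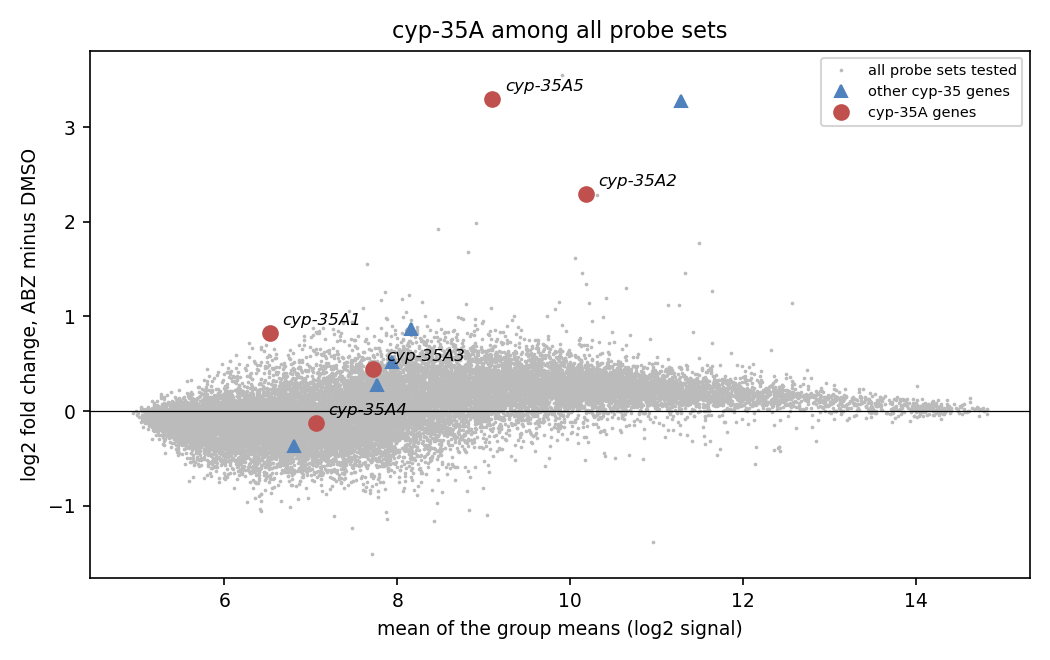
Log2 fold change, ABZ minus DMSO (vertical axis), against the mean of the group means (log2 signal, horizontal axis) for the 22548 probe sets tested (grey), the cyp-35A genes (red circles) and the other cyp-35 genes (blue triangles). cyp-35A5 at 3.29 and cyp-35A2 at 2.29 lie far above the cloud of probe sets, and cyp-35A4 at -0.13 lies inside it.

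The ABZ replicates were ordered alike across the subfamily. On the DMSO side replicate 3 lay above replicate 2 in 5 of 5 genes, and only the place of replicate 1 differed. The share of all probe sets with DMSO replicate 3 above DMSO replicate 2 was not counted. From high to low the ABZ arrays ran replicate 2, replicate 3, replicate 1 in 5 of 5 genes, an order held by 18.1% of all probe sets and noticed after the values were seen. The order was not confined to cyp-35A, since 4 of the 5 other cyp-35 genes had it too. ABZ replicate 2 was the highest ABZ array for 28.2% of all probe sets and for 5 of 5 cyp-35A genes. It exceeded the mean of the other ABZ arrays by 1.95 for cyp-35A5, 1.43 for cyp-35A3, 1.04 for cyp-35A1, 1.02 for cyp-35A2 and 0.33 for cyp-35A4. Over all probe sets the median excess was -0.01, and 0.0488% of them had an excess as large as that of cyp-35A5 and 3.56% one as large as that of cyp-35A4. The mean excess was 1.15 over the cyp-35A genes, 1.05 over the other cyp-35 genes and 0.61 over 13 fat metabolism genes. The excess of ABZ replicate 2 therefore reached the members whose groups overlapped as well as the others. DMSO replicate 2 showed no such excess, being the lowest DMSO value of cyp-35A1, cyp-35A3, cyp-35A4 and cyp-35A5.

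The spread between ABZ replicates was wide for these genes. The SD over the ABZ arrays was 0.21 for cyp-35A4 and 0.60 to 1.13 for the other 4 genes, against a median of 0.09 over all probe sets. Over the DMSO arrays it was 0.23 for cyp-35A4 and 0.27 for cyp-35A5, close to the median of 0.28 over all probe sets. It was 0.42 for cyp-35A1, 0.69 for cyp-35A3 and 0.91 for cyp-35A2.

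Intestine markers were set beside this order, as the cyp-35A genes are intestinal. Their mean log2 signal over 10 genes was 11.05, 11.21 and 10.89 in ABZ replicates 1, 2 and 3, and 10.72, 11.12 and 10.88 in DMSO replicates 1, 2 and 3. ABZ replicate 2 exceeded the mean of the other ABZ arrays by 0.24 on this list. Single markers differed, with an excess of 1.29 for the cysteine protease gene cpr-1 and 0.79 for the esterase gene ges-1. Both were named for this excess after it was seen, and they had the largest of the list. The other markers lay between -0.27 (vha-6) and 0.22 (elt-7). Unlike the cyp-35A genes, cpr-1 was as high in DMSO replicate 2, at 14.29, as in ABZ replicate 2, at 14.25. ges-1 had 9.79 in ABZ replicate 2 and 9.52 and 9.58 in DMSO replicates 2 and 3. The list's median log2 fold change was 0.08, with 8 of 10 genes positive, 0 called and 2 with every ABZ value above every DMSO value. Over all probe sets 53.3% were positive and 7.81% had every ABZ value above every DMSO value. The list's part in the cyp-35A values was not tested. Of the 4 sperm markers measured, msp-31, msp-142 and spe-11 were highest in replicate 1 of both groups, at 13.19 with ABZ and 12.75 with DMSO for msp-31. spe-9 was highest in replicate 1 of the DMSO group, at 8.33, and lowest in replicate 1 of the ABZ group, at 7.44.

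Whether the members differed from each other in response was tested on the difference of 2 log2 signals within the same array. Shifts common to both probe sets cancel in this difference. The shift of DMSO replicate 1 does not, since it differed with brightness. Its median was -0.60 in the brightest bin, that of cyp-35A2, and 0.26 in bin 2, that of cyp-35A1 and cyp-35A4. All 10 pairs were compared by a two-sided exact permutation test, which cannot give a p below 0.1 with 3 arrays against 3. In 7 of the 10 pairs the ABZ and DMSO differences did not overlap, each at this smallest exact permutation p of 0.1, and 0.143 after Benjamini-Hochberg adjustment over the 10 pairs. No pair can therefore reach 0.05 by this permutation test, and the pairs were not fitted by a model. The pairs share genes, so they are not independent. Except for cyp-35A1 minus cyp-35A4, every separated pair holds cyp-35A2 or cyp-35A5, whose own groups were already separated. The share of separated pairs among other genes was not counted, so the count of pairs has no background.

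cyp-35A5 and cyp-35A4 differed most. cyp-35A5 minus cyp-35A4 was 3.27, 4.84 and 3.16 on the ABZ arrays and 0.01, 0.31 and 0.68 on the DMSO arrays. Only the change of this difference between the groups is read. The responses thus differed by 3.42 on the log2 scale (2.88 to 3.72 with each array left out in turn). Against cyp-35A3 the response of cyp-35A5 was larger by 2.85, and against cyp-35A1 by 2.47. The 3 ABZ differences lay above the 3 DMSO differences in both pairs.

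The neighbours cyp-35A2 and cyp-35A1 kept a nearly fixed difference on the ABZ arrays, at 4.44, 4.37 and 4.33, against 1.49, 3.65 and 3.61 on the DMSO arrays. The difference in response was 1.46 and dropped to 0.75 without DMSO replicate 1. Without that array, cyp-35A2 minus cyp-35A3 likewise went from 1.845 to 0.964, and cyp-35A2 minus cyp-35A4 from 2.417 to 1.775. The pair cyp-35A3 and cyp-35A4, which are also near neighbours, had differences of 0.43, 1.69 and 0.74 on the ABZ arrays and 0.86, -0.06 and 0.35 on the DMSO arrays. These overlapped (difference in response 0.57, two-sided exact permutation p 0.4).

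cyp-35A5 and cyp-35A2, the pair with the larger fold changes, were not separated in response by the test. cyp-35A5 minus cyp-35A2 was -0.84, 0.04 and -0.92 on the ABZ arrays and -0.62, -2.12 and -2.01 on the DMSO arrays, a difference in response of 1.01 (two-sided exact permutation p 0.3, adjusted 0.333). Without DMSO replicate 1 the groups did not overlap, and the difference was 1.49.

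**Figure D4:**
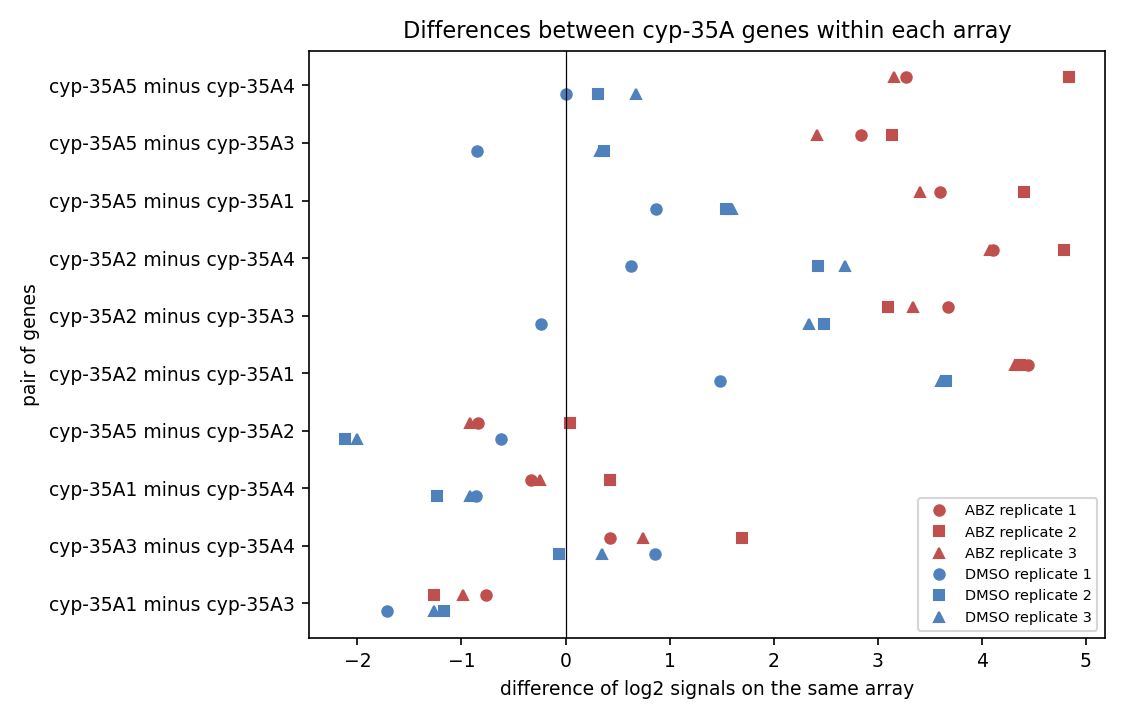
Difference of the log2 signals of 2 cyp-35A genes on the same array (horizontal axis) for the 10 pairs, with ABZ arrays (red) above DMSO arrays (blue) and marker shape giving the replicate. Red and blue are separated in 7 pairs, and they overlap for cyp-35A5 minus cyp-35A2, cyp-35A3 minus cyp-35A4 and cyp-35A1 minus cyp-35A3.

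The other genes of the cyp-35 family gave the closest setting for these values. Of the 5 measured genes cyp-35B1, cyp-35B2, cyp-35B3, cyp-35C1 and cyp-35D1, 0 were called, and 4 had a positive log2 fold change (median 0.52). Over all probe sets 53.3% were positive. cyp-35C1 had 12.57, 13.58 and 12.60 in ABZ replicates 1, 2 and 3 and 9.65, 9.44 and 9.84 in DMSO replicates 1, 2 and 3. With a log2 fold change of 3.27 (unadjusted limma p 3e-05, adjusted p 0.651), it had groups that did not overlap, like cyp-35A5. Over all probe sets 7.81% had every ABZ value above every DMSO value. Another probe set of cyp-35C1 had 3.55 (unadjusted limma p 0.000167, adjusted p 0.651), also without overlap. The genes that follow cyp-35A5 on the chromosome had 0.87 (cyp-35B1) and 0.28 (cyp-35B2), and their groups overlapped. cyp-35D1 had 0.52 and cyp-35B3 -0.37. Whether cyp-35A differed from these genes as a group was not tested.

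K09D9.1, the gene between cyp-35A3 and cyp-35A4, was taken by its position and had a log2 fold change of 0.49 (unadjusted limma p 0.0963, adjusted p 0.651). The chemoreceptor-family gene srx-63, on the other side of cyp-35A5, had -0.12. C03G6.6, on the other side of cyp-35A1, had -0.09, and both genes had overlapping groups.

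**Figure D5:**
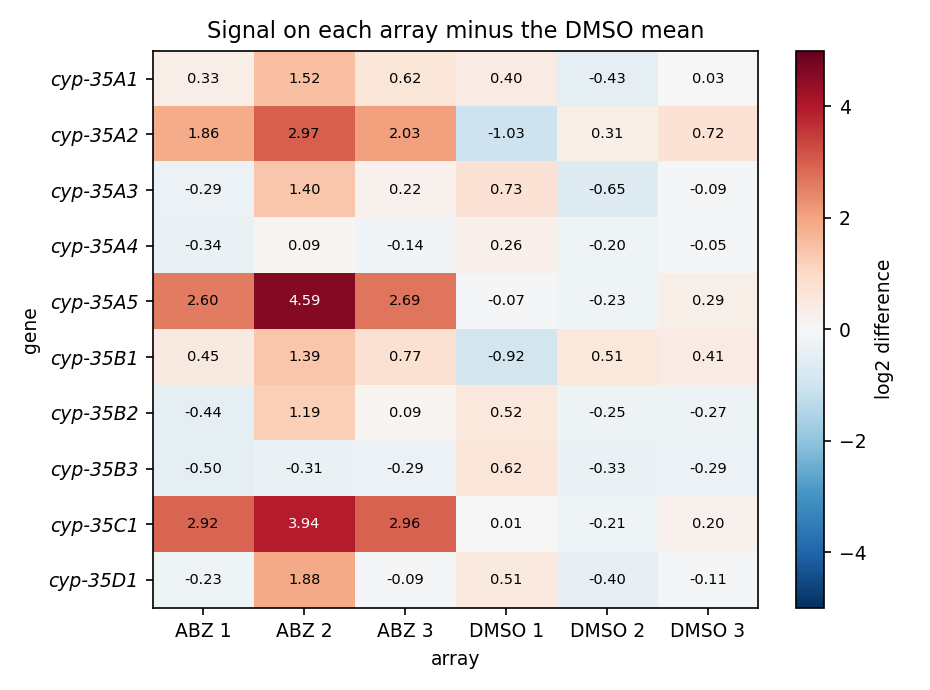
Log2 signal on each array minus the gene's DMSO mean for the 10 measured cyp-35 genes (rows) and 6 arrays (columns), with red above and blue below the DMSO mean. cyp-35A1, cyp-35A2, cyp-35A5, cyp-35B1 and cyp-35C1 are red on each ABZ array, with ABZ replicate 2 the deepest red, from 1.39 for cyp-35B1 to 4.59 for cyp-35A5. The groups of cyp-35A1 and cyp-35B1 still overlap. cyp-35A1 has 0.40 on DMSO replicate 1 and 0.33 on ABZ replicate 1. cyp-35B1 has 0.51 on DMSO replicate 2 and 0.45 on ABZ replicate 1.

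Outside the family, the other 63 measured cytochrome P450 genes had a median log2 fold change of -0.09, with 23 positive, 40 negative and 0 called. Over all probe sets 53.3% were positive. The list's mean log2 signal was 7.3 to 7.5 per array. Dim probe sets also had medians below 0, at -0.119 and -0.127 in the dimmest brightness bins 1 and 2. The part of brightness in the list's values was not tested. At an unadjusted limma p under 0.05, 2 of the 63 genes were higher and 1 lower, beside 1.52% and 0.341% of all probe sets. They were cyp-29A2 with a log2 fold change of 1.13, cyp-29A3 with 0.48 and cyp-33B1 with -0.37. The next smallest p was that of cyp-43A1, with 0.55.

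Partners that supply electrons to P450 enzymes were also measured. emb-8, the P450 reductase, had log2 signals of 10.46, 10.49 and 10.31 in ABZ replicates 1, 2 and 3 and 9.38, 10.14 and 10.30 in DMSO replicates 1, 2 and 3, and its groups were separated by less than 0.01. The cytochrome b5 gene cytb-5.1 had a log2 fold change of 0.61 (unadjusted limma p 0.036, adjusted p 0.651), also with separated groups, and cytb-5.2 had 0.07. None of the 3 was called. Over all probe sets 7.81% had every ABZ value above every DMSO value, and 1.52% were higher at an unadjusted limma p under 0.05. The mean log2 signal of the partners was 10.791 on DMSO replicate 1, against 11.371 and 11.308 on DMSO replicates 2 and 3. The part of that array in their values was not tested.

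Of 15 regulators of detoxification and fat genes, 0 were called, 10 had a positive log2 fold change, and the median was 0.20. Over all probe sets 53.3% were positive, and the medians of the brightest bins 4 and 5 were 0.225 and 0.208. The list's mean log2 signal was 8.401 on DMSO replicate 1, against 8.635 and 8.807 on DMSO replicates 2 and 3. The part of that array in the list's median was not tested. aha-1, the partner of the aryl hydrocarbon receptor ahr-1, had 0.29 and ahr-1 had -0.17. The nuclear receptors nhr-114 and nhr-49 had -0.36 and 0.35, and nhr-86 had 0.26. Also named, for their known roles, are mdt-15 and nhr-8. mdt-15, a Mediator subunit needed for xenobiotic induction of detoxification genes, had 0.20. nhr-8, a receptor that contributes to resistance to toxins, had 0.42 with an SE of 0.45.

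Fat metabolism genes were measured because knockdown of cyp-35A genes affects fat stores. Of 13 genes, 0 were called and 10 had a positive log2 fold change (median 0.07), beside 53.3% of all probe sets. acs-2, an acyl-CoA synthetase of fatty acid oxidation, had -1.05 (unadjusted limma p 0.082, adjusted p 0.651), with 7.63, 9.44 and 7.85 in ABZ replicates 1, 2 and 3 and 8.89, 9.54 and 9.62 in DMSO replicates 1, 2 and 3. Another, dimmer probe set of acs-2 had -0.68 (unadjusted limma p 0.534). Its values were 6.47, 8.90 and 6.40 in ABZ replicates 1, 2 and 3 and 6.01, 8.60 and 9.20 in DMSO replicates 1, 2 and 3. On that probe set DMSO replicate 1 was thus the lowest array. lipl-4 had -0.24, fat-6 0.22 and fasn-1 0.34. The desaturase gene fat-7, singled out after its values were seen, was high in replicate 2 of both groups, at 11.76 with ABZ and 11.65 with DMSO, and 8.46 to 9.35 on the other 4 arrays. The cyp-35A genes did not share this, since DMSO replicate 2 was not their highest DMSO value.

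Likeness to each member was described by Pearson's r over the 6 arrays, among 1585 genes whose SD over these arrays was at least 0.5. The points share the same arrays and the 2 groups, so r follows the group difference and ABZ replicate 2, and it carries no test. ugt-5 (0.989), ugt-16 (0.989) and cyp-35C1 (0.985) were most like cyp-35A5. C34H4.2 (0.988), ugt-22 (0.985) and T10B5.8 (0.983) were most like cyp-35A2. ugt-41 (0.943), mtl-1 (0.941) and dhs-23 (0.920) were most like cyp-35A1.

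cyp-35A3 was most like cyp-35B2 (0.957), cyp-35D1 (0.940) and B0238.13 (0.894), which were likewise highest in ABZ replicate 2 and next highest in DMSO replicate 1. cyp-35A4 varied little, with an SD of 0.21 over the arrays. fbxc-34 (0.840), egas-2 (0.836) and ZK262.9 (0.823) came closest to it, and each of them was high on DMSO replicate 1, at 7.76 to 7.78. Among the members themselves r over the 6 arrays was 0.923 for cyp-35A2 with cyp-35A5, 0.901 for cyp-35A1 with cyp-35A3 and -0.374 for cyp-35A2 with cyp-35A4.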

How the data were processed

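The authors deposited 1 log2 signal per probe set and array, made with RMA per the submitters' processing notes, which also name limma; versions, order of steps and genome build are not given in the sources used here. The log2 scale was read from the range of the values, and no detection calls were used, so signal above background could not be judged. From 22625 probe sets, 77 Affymetrix controls were left out. Of the 22548 others, 20766 list 1 gene, 887 several and 895 none. Gene numbers of 20701 were matched to RefSeq's WBcel235 table, and 0 symbols changed. A gene is represented by its brightest probe set.

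limma 3.58.1 in R 4.3.3 fitted group as the only term, with eBayes, two-sided, on all 6 arrays. Differences between members were tested by exact permutation. Simulated data were used to test both steps. The series text calls the cultures matched. Deviations from the group means of same-numbered arrays correlated at 0.125, 0.264 and 0.066. Differently numbered arrays were not compared in this way, so these values cannot decide whether the numbers mark pairs. The numbers were not taken as pairs in the main fit. Members, lists and alternatives were chosen with earlier results of these data known. The rule names every cyp-35A probe set, ben-1, up to 4 genes of smallest p per list, and 3 most similar genes per member. The number of arrays limits the precision. Other lists had 0 called genes and these median log2 fold changes: germline and oocytes 0.16 (8 genes), sperm 0.19 (4 of 5 measured), adult epidermis -0.04 (4), body wall muscle 0.02 (4) and neurons 0.53 (5). Alternatives were other scalings, a filter on dim probe sets, the replicate block, other variance settings, array weights and each array left out.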

Additional observations from a re-analysis of the deposited data

How the results depend on the processing

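With each array left out in turn, the log2 fold change ranged from 2.64 to 3.64 for cyp-35A5, 1.77 to 2.65 for cyp-35A2, 0.48 to 1.07 for cyp-35A1, -0.035 to 0.81 for cyp-35A3 and -0.24 to -0.0017 for cyp-35A4. Default array weights gave the only calls of cyp-35A genes, cyp-35A5 at 3.74 and cyp-35A2 at 2.10, among 28 probe sets in place of 0. Gene-by-gene weights called 5 probe sets, none of them a cyp-35A gene. The sign of cyp-35A4 turned under array weights (0.12), gene-by-gene weights (0.10) and without replicate 1 of both groups (0.10), and that of cyp-35A3 turned without ABZ replicate 2. The cause was not tested. The default weights stopped before they converged. With the replicate number as a block, cyp-35A5 kept 3.29 (SE 0.53, adjusted limma p 0.645) and cyp-35A2 2.29 (SE 0.35), 0 probe sets were called, and no call of a cyp-35A gene changed. The differences between pairs of members kept their sign with each array left out; the permutation test was not run on fewer arrays, where it cannot reach 0.05. Leaving out the dimmest probe sets (1 in 3) removed cyp-35A1 from the table. The mean of a gene's probe sets was not run as an alternative, because each member has 1 probe set. The counts without DMSO replicate 1 or ABZ replicate 2 were added after the data had been seen.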
